A study of Mus musculus with 18 samples.

Results

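The guidance receptors of B lineage cells were measured here as transcripts in sorted mouse cells of 3 types: lymph node B cells of unimmunized mice (nB), germinal center B cells that bind the immunizing antigen (GCB) and CD138+ marrow plasma cells (BMPC). They comprise the chemokine receptors Ccr7, Cxcr5, Ccr6, Cxcr4, Cxcr3, Ccr9 and Ccr10 and the oxysterol receptor Gpr183, chosen by symbol, and are 8 of the 21761 genes in the table. All 8 passed the filter on low values, FPKM (reads scaled to exon length and to library depth) above 1 in at least 2 libraries, which left 11522 genes. There were 18 libraries, 3 for each cell type and genotype.

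The mice carried loxP-flanked alleles of Dnmt3a and Dnmt3b, which encode the enzymes that set new DNA methylation, on a mixed background (labelled B6;129S4-Dnmt3atm3.1Enl Dnmt3btm5.1Enl/Mmnc). Dnmt3-deficient mice were Dnmt3afl/fl Dnmt3bfl/fl and carried 1 copy of a Cre allele active in the B lineage, which removes the catalytic exons. Dnmt3-sufficient littermates had the same floxed alleles and no Cre, so the genotypes also differ by that allele itself. The mice were adults at the start of the experiments. nB (B220+ GL7- Fas-) came from unimmunized mice. GCB (B220+ GL7+ Fas+ and binding phycoerythrin, PE) and BMPC (CD138+) came from mice immunized 30 days before with PE in complete Freund's adjuvant. Each GCB library held a pool of mice. Tissue, immunization and cell type therefore change together for BMPC against nB, and immunization and cell type for GCB against nB. Each nB and GCB group had 2 female libraries and 1 male library, and each BMPC group had 1 female and 2 male libraries.

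B cells find their place in lymphoid tissue by G protein-coupled receptors that read gradients of ligand. Cxcr5 draws B cells into follicles, Ccr7 draws them toward the T cell zone, and Gpr183 (also known as EBI2) reads oxysterols made by stromal cells and guides cells to the outer follicle. Cxcr4, the receptor of Cxcl12, organizes the germinal center dark zone and holds plasma cells in bone marrow. Ccr6 reads Ccl20, and Cxcr3 reads the interferon-induced ligands Cxcl9, Cxcl10 and Cxcl11. Ccr9 reads Ccl25, and Ccr10 reads Ccl27 and Ccl28.

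The RefSeq table of promoters (build GRCm38.p6, 250 bases before to 50 bases after a transcript's start) held 5 of the 8 genes. Promoters of Gpr183, Ccr6, Cxcr3 and Cxcr4 are shown because the deleted enzymes methylate cytosine in CG dinucleotides, which are in capitals. The RNA libraries do not measure methylation. The promoters of Gpr183 and Ccr6, which fell together from nB to GCB, stand beside those of Cxcr4 and Cxcr3, which did not fall there. Those of Ccr9, which also fell there, and of the downstream Ccr6 start are described below but not printed. Gpr183 is at chr14:121965144-121965443 on the minus strand, Ccr6 (the upstream of its 2 starts) at chr17:8235793-8236092 on the plus strand, Cxcr3 at chrX:101734098-101734397 on the minus strand and Cxcr4 at chr1:128592250-128592549 on the minus strand.
Gpr183: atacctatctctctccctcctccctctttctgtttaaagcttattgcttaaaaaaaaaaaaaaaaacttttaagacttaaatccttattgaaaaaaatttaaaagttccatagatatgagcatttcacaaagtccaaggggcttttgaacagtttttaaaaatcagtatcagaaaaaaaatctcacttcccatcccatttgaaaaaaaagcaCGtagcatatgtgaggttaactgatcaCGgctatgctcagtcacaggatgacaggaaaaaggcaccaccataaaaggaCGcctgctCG
Ccr6: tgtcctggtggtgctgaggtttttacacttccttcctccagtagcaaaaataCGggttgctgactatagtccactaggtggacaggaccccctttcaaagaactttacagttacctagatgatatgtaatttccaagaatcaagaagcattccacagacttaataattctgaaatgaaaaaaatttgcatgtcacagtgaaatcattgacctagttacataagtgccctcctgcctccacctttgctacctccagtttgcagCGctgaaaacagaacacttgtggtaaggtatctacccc
Cxcr3: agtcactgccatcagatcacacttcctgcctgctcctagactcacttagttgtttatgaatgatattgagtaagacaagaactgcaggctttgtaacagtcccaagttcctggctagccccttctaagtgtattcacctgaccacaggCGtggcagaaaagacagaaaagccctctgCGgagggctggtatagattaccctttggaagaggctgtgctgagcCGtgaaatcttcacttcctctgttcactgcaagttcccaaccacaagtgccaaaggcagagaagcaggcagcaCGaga
Cxcr4: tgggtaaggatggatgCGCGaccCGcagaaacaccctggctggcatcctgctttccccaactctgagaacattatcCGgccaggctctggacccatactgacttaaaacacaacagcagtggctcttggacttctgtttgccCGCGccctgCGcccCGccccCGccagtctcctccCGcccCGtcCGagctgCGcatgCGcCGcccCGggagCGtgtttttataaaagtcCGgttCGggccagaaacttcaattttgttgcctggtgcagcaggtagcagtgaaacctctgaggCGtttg
Cxcr4 has 20 CG in these 300 bases, more than 73.5% of 32851 promoters, whose median is 7. Gpr183, Cxcr3 and Ccr9 each have 4 CG, with 31.4% of promoters holding fewer, and the upstream Ccr6 start has 2. The downstream Ccr6 start has 10. Of 3 motifs looked for on both strands, the octamer ATGCAAAT was in the upstream Ccr6 promoter (1.74% of all promoters hold it), CAGGTG was in those of Cxcr3 and Ccr9 (20.2%) and GAGGAAGT was in that of Cxcr3 (3.20%). The motifs do not overlap in their letters, and these matches are descriptions of sequence only.

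Gene positions are those of GENCODE vM1 on the files' build, mm9. Cxcr5 and Ccr9 lie on chromosome 9 (44319871 to 44334504 and 123587557 to 123691089), Ccr7 and Ccr10 on chromosome 11 (99005510 to 99016391 and 101034311 to 101036757), Cxcr4 on chromosome 1 (130484776 to 130488870), Gpr183 on chromosome 14 (122351553 to 122364415), Ccr6 on chromosome 17 (8429077 to 8449992) and Cxcr3 on the X chromosome (98926874 to 98929608). All are protein coding. Gpr183 lies within the span of Ubac2, and Ccr10 overlaps the span of Cntnap1, both on the other strand and with no shared exon. The exons of Ccr9 overlap exons of Gm17021, Gm17200 and Slc6a20a, and the authors' exon length for Ccr9 (9718 bases) is above the 3217 bases of this annotation, so the level of Ccr9 is uncertain. Slc6a20a itself was at 0 in all 18 libraries.

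Gene-assigned reads numbered 6692516 to 8987922 per nB library, 7644544 to 8903872 per GCB library and 1355231 to 3803197 per BMPC library. In BMPC they ran from 2196198 to 3803197 in Dnmt3-sufficient and from 1355231 to 2265945 in Dnmt3-deficient libraries. The median SD of log2(FPKM + 1) between replicates was 0.27 to 0.41 in nB and GCB and 0.78 to 0.82 in BMPC, so a BMPC value carries more error. The cell type labels were checked against defining markers. The 8 germinal center markers summed to 1298 to 1498 FPKM in GCB and to 18.5 to 83.5 in nB and BMPC, Jchain was at 16189 to 46609 in BMPC, and the B cell factor Pax5 was at 0 in all 6 BMPC libraries. Dnmt3a and Dnmt3b, summed over all their exons, do not test the deletion of catalytic exons. In nB Dnmt3a was at 2.35 to 5.18 FPKM in Dnmt3-sufficient and 2.24 to 4.33 in Dnmt3-deficient libraries. BMPC libraries also held neutrophil markers (9.37 to 675 FPKM summed over 8 genes, and 0 in nB and GCB) and early B markers (308 to 630 over 6 genes). Other marker sums there differed by genotype without overlap. The 4 erythroid markers summed to 1160 to 2194 FPKM in Dnmt3-sufficient and 149 to 797 in Dnmt3-deficient BMPC (3 or 4 above 0), the 5 NK cell markers to 86.2 to 158 and 26.3 to 78.7 (1 or 2 above 0, with Ncr1 at 0), and the 7 macrophage and dendritic cell markers to 40.5 to 87.7 and 98.4 to 171 (1 to 3 above 0). The 9 T cell markers overlapped, at 56.5 to 178 and 124 to 217. Markers of the sorted cells themselves also separated by genotype. The 8 plasma cell markers summed to 18961 to 29530.5 FPKM in Dnmt3-sufficient and 33976 to 51679 in Dnmt3-deficient BMPC. Jchain, 1 of these, was at 16189 to 25612 and 29771 to 46609. The 6 B lineage markers summed to 1173 to 1650 and 1733 to 1848. The part of these marker differences in the BMPC results was not tested. Per the study's methods, a dump channel of CD11b, CD11c, CD90.2 and Ly6-G antibodies served to leave out autofluorescent cells. These antigens are found on myeloid cells, dendritic cells, T cells and neutrophils. Fewer cells of a type and less RNA per cell cannot be told apart in these bulk libraries.

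The 8 genes summed highest in nB, through Ccr7, Cxcr5, Ccr6 and Gpr183, while Cxcr4 was lowest in nB in both genotypes and Ccr10 was at 0 there. The summed FPKM of the 8 genes was 817 ± 16.1 (SD, n = 3) in Dnmt3-sufficient nB, 173 ± 29.2 in GCB and 60.9 ± 20.6 in BMPC, and 836 ± 29.4, 177 ± 13.5 and 57.4 ± 42.6 in the Dnmt3-deficient groups. Ccr7, Cxcr5, Ccr6 and Gpr183 made up 97.8% ± 1.05 of the sum in Dnmt3-sufficient nB, 72.3% ± 3.53 in GCB and 33.6% ± 1.28 in BMPC. In Dnmt3-deficient cells they made up 96.5% ± 0.84, 73.8% ± 1.91 and 15.8% ± 22.4, the last running from 0.383% to 41.5% between libraries. In GCB this share was mostly Cxcr5 (59.8% ± 3.45 in Dnmt3-sufficient and 65.4% ± 4.13 in Dnmt3-deficient cells). In BMPC Cxcr4 had the highest mean share, 42.7% ± 19.5 in Dnmt3-sufficient and 52.8% ± 38.2 in Dnmt3-deficient cells, with a wide spread between libraries.

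**Figure D1:**
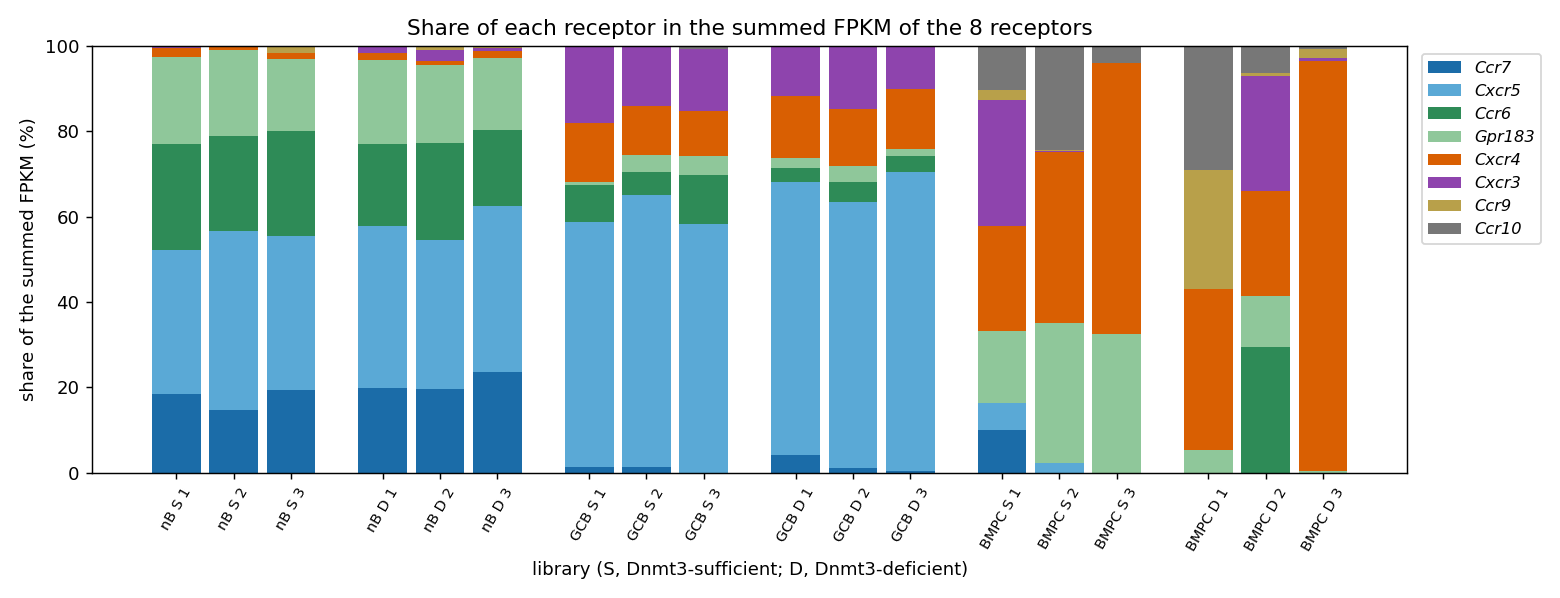
Share of each receptor gene in the summed FPKM of the 8 genes (y axis, percent) in each of the 18 libraries (x axis), stacked by gene. The 4 genes at the bottom fill nearly all of each nB bar, Cxcr5 fills most of each GCB bar, and the BMPC bars differ between libraries, with Cxcr4 from 24.6% to 96.2%.

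Within Dnmt3-sufficient nB the order of FPKM was Cxcr5, Ccr6, Gpr183, Ccr7, Cxcr4, Ccr9, Cxcr3 and Ccr10. Cxcr5 lay above Ccr6, Ccr6 above Gpr183 and Ccr7 above Cxcr4 in all 3 libraries, while the ranges of Gpr183 and Ccr7, and those of the neighbours from Cxcr4 to Ccr10, overlapped. In Dnmt3-sufficient GCB the order was Cxcr5, Cxcr3, Cxcr4, Ccr6, Gpr183, Ccr7, Ccr10 and Ccr9, with Cxcr5, Cxcr3 and Cxcr4 each apart from the next except for the overlap of Cxcr4 and Ccr6. In BMPC the order began with Cxcr4 in both genotypes, and every pair of neighbours overlapped in Dnmt3-sufficient cells.

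**Figure D2:**
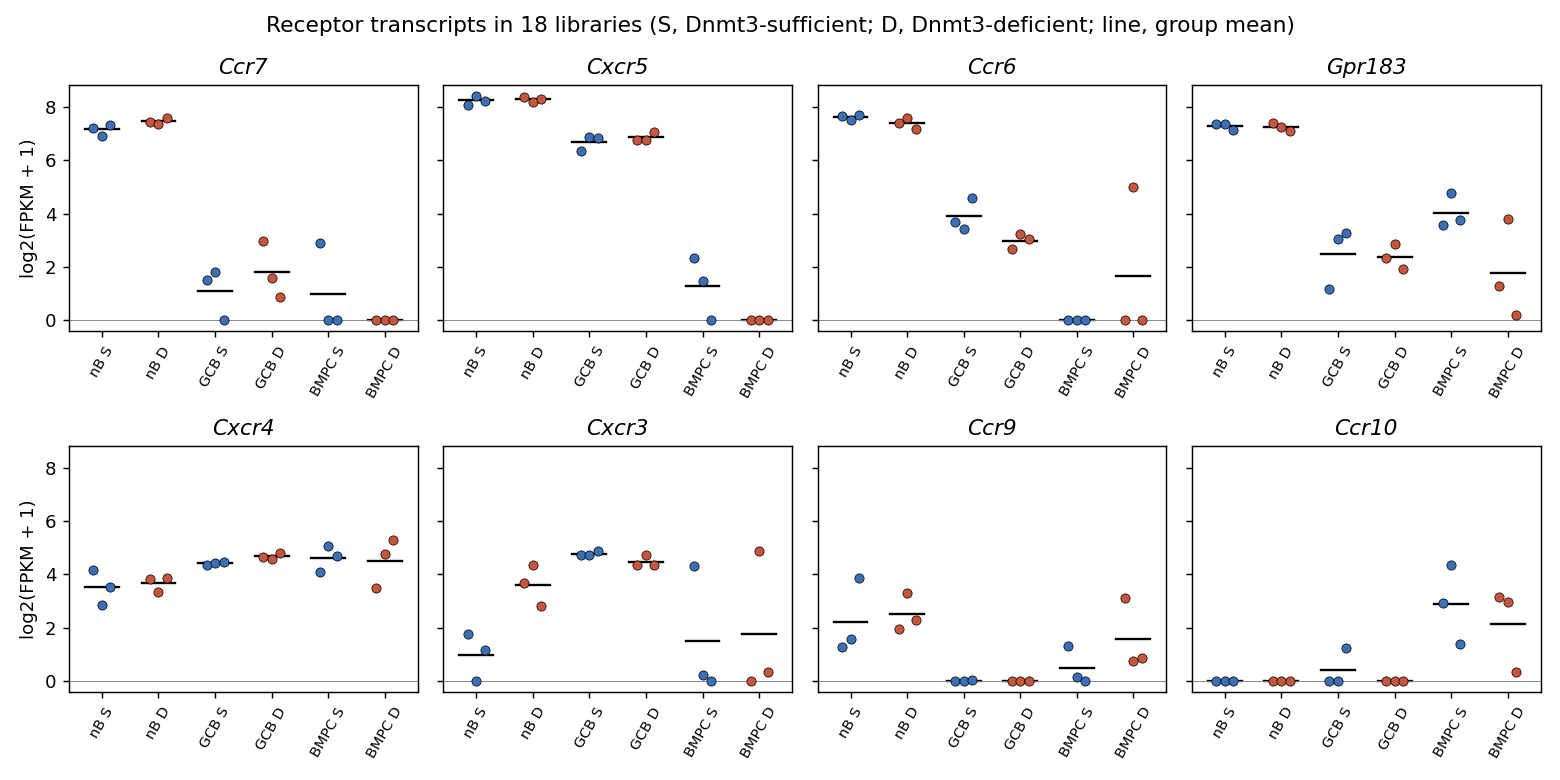
Level of each receptor gene, as log2(FPKM + 1) on the y axis, in the 3 libraries of each cell type and genotype (points, x axis) with the group mean (line). Ccr7, Cxcr5, Ccr6 and Gpr183 are highest in nB, Ccr10 is above 0 in all 6 BMPC libraries, and the 3 Dnmt3-deficient nB points of Cxcr3 lie above the 3 Dnmt3-sufficient ones.

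The comparison of GCB with nB asked how the receptors differ between germinal center and resting follicular B cells. Of the 8 genes, Ccr7, Gpr183, Ccr6, Ccr9 and Cxcr5 fell and Cxcr3 rose in Dnmt3-sufficient cells, 6 in all. To pass, a change had to reach 1 on the log2(FPKM + 1) scale with an adjusted p no higher than 0.05 (limma, over all 11522 genes). Of all genes tested, 28.7% passed in that comparison, 12.1% higher and 16.6% lower in GCB. In Dnmt3-deficient cells 5 genes passed, the same falls without the rise of Cxcr3, beside 25.4% of all genes (10.7% higher and 14.7% lower). The median change of the 8 genes was -1.89 in the first comparison and -1.97 in the second, against -0.11 and -0.13 over all genes. The 3 GCB and 3 nB libraries did not overlap for 7 of the 8 genes in Dnmt3-sufficient and 6 in Dnmt3-deficient cells, beside 45.6% and 45.3% of all genes.

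Ccr7 (Entrez 12775) had the largest fitted fall on the log2 scale. Dnmt3-sufficient nB had 148, 120 and 161 FPKM and GCB had 1.88, 2.52 and 0, the last with 0 reads. Dnmt3-deficient nB had 172, 164 and 189 FPKM and GCB had 6.92, 2.00 and 0.803. Every nB library lay far above every GCB library, and the means differed 97.7-fold in Dnmt3-sufficient cells (log2 change -6.05, SE 0.55, adjusted p = 9.11e-08, limma) and 54.1-fold in Dnmt3-deficient cells (-5.65, SE 0.55, adjusted p = 2.42e-07, limma). These folds rest on the low GCB values, and they were 152-fold without GCB replicate 2 and 65.1-fold without replicate 3 in the first case and 125-fold without GCB replicate 1 in the second.

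Gpr183 (Entrez 321019) fell in both genotypes. Its FPKM was 165, 163 and 142 in Dnmt3-sufficient nB and 1.26, 7.34 and 8.55 in GCB, and 170, 153 and 135 in Dnmt3-deficient nB and 4.04, 6.31 and 2.77 in GCB. The means were 27.4-fold lower in Dnmt3-sufficient GCB (log2 change -4.80, SE 0.49, adjusted p = 3.97e-07, limma) and 34.9-fold lower in Dnmt3-deficient GCB (-4.88, SE 0.49, adjusted p = 3.42e-07, limma). Ubac2, whose span holds Gpr183, was at 26.4 ± 9.96 FPKM in Dnmt3-sufficient nB and 38.2 ± 7.46 in GCB and so did not move the same way.

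Ccr6 (Entrez 12458) had 200, 180 and 205 FPKM in Dnmt3-sufficient nB and 11.9, 9.69 and 22.8 in GCB. In Dnmt3-deficient cells it had 167, 190 and 145 FPKM in nB and 5.31, 8.39 and 7.36 in GCB. The groups stood well apart in both genotypes, 13.2-fold (log2 change -3.72, SE 0.43, adjusted p = 1.92e-06, limma) and 23.8-fold (-4.40, SE 0.43, adjusted p = 2.47e-07, limma).

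Cxcr5 (Entrez 12145), the follicle receptor, fell least of the receptors high in nB and was the highest of the 8 in GCB. It was at 272, 339 and 302 FPKM in Dnmt3-sufficient nB and 80.4, 116 and 114 in GCB, and at 328, 292 and 314 in Dnmt3-deficient nB and 107, 106 and 134 in GCB. The means differed 2.94-fold (log2 change -1.56, SE 0.24, adjusted p = 4.52e-05, limma) and 2.69-fold (-1.42, SE 0.24, adjusted p = 0.000128, limma), with no overlap. Its mean in Dnmt3-sufficient GCB lay at percentile 91.7 of the genes tested, against 98.0 in nB.

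Cxcr4 (Entrez 12767) was 16.7, 6.27 and 10.5 FPKM in Dnmt3-sufficient nB and 19.4, 20.6 and 20.8 in GCB, and 13.3, 9.04 and 13.7 in Dnmt3-deficient nB and 24.3, 22.6 and 27.0 in GCB. All GCB libraries lay above all nB libraries of their genotype. The adjusted p met the threshold in both (0.0197 and 0.0115, limma) but the log2 changes of 0.90 (SE 0.28) and 1.00 (SE 0.28, 0.996 before rounding) fell short of the minimum change of 1, so neither passed. Leaving out nB replicate 1 of the Dnmt3-sufficient group gave a change of 1.22 that passed (adjusted p = 0.00439, limma). In Dnmt3-deficient cells it passed without nB replicate 1 or 3 or without GCB replicate 1 or 2 (1.00 to 1.09, adjusted p = 0.0154 to 0.0284, limma).

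Cxcr3 (Entrez 12766) rose from nB to GCB in Dnmt3-sufficient cells. It was 2.42, 0 and 1.25 FPKM in Dnmt3-sufficient nB and 25.1, 25.8 and 28.5 in GCB, a 21.7-fold difference of means (log2 change 3.80, SE 0.54, adjusted p = 2.19e-05, limma). The fold was 42.5 without nB replicate 1. In Dnmt3-deficient cells it was 11.8, 19.7 and 5.94 FPKM in nB and 19.5, 25.4 and 19.6 in GCB, with overlapping libraries and a change of 0.87 (SE 0.54, adjusted p = 0.243, limma). The difference between these changes was -2.93 (SE 0.77), which did not pass after adjustment over all genes (adjusted p = 0.398, limma).

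Ccr9 (Entrez 12769) was 1.40, 1.96 and 13.4 FPKM in Dnmt3-sufficient nB and 2.83, 8.92 and 3.88 in Dnmt3-deficient nB. The 6 GCB libraries held 1 Ccr9 read in all. Set against a floor of 3 reads in each GCB library, Ccr9 was at least 150-fold lower in Dnmt3-sufficient and at least 142-fold lower in Dnmt3-deficient GCB (fitted log2 changes -2.22, SE 0.47, and -2.51, SE 0.47, adjusted p = 0.00117 and 0.000406, limma). Without nB replicate 3 of the first group the bound was 45.2-fold (fitted change -1.41, which passed), and without nB replicate 2 of the second it was 91.3-fold. Plasmacytoid dendritic cells and some T cells are known to express Ccr9. Of 5 markers of the former, Siglech had 43.6, 22.6 and 99.1 FPKM in the 3 Dnmt3-sufficient nB libraries and 36.5, 115 and 57 in the Dnmt3-deficient ones, highest in each genotype where Ccr9 was highest, and no more than 0.0516 in GCB. The list as a whole did not follow Ccr9 among Dnmt3-sufficient nB libraries, at 1739, 1743 and 1644 FPKM, and it summed to 1533, 1848 and 1588 in the Dnmt3-deficient ones, with all 5 above 0. It summed to 54.0 to 132 FPKM in GCB with 1 or 2 above 0, and to 1791 to 2296 in BMPC with 2 or 3 above 0. Ly6d, which B cells also express, made up most of these sums. The 9 T cell markers summed to 36.1 to 125 FPKM in nB, also highest in the same libraries, and to 3.03 to 8.47 in GCB. The 7 macrophage and dendritic cell markers were highest in those nB libraries too, at 76.6 and 46.5 FPKM, and summed to 11.7 to 19.7 in GCB. CD11c and CD90.2, in the dump channel, are found on dendritic and T cells. The part of these cells in the Ccr9 values was not tested. Ccr10 (Entrez 12777) had 0 reads in every nB library and 20 reads in a single GCB library.

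The comparison of BMPC with nB set plasma cells of the marrow against resting B cells. Ccr7, Cxcr5, Ccr6 and Gpr183 fell and Ccr10 rose in both genotypes, 5 of the 8 genes in each, beside 27.1% of all genes in Dnmt3-sufficient cells (7.94% higher and 19.2% lower) and 26.8% in the other genotype (5.21% higher and 21.6% lower). The BMPC and nB libraries did not overlap for the same 5 genes in each genotype, beside 44.8% and 45.7% of all genes. The median change of the 8 was -2.50 and -3.68, against -0.70 and -0.84 over all genes.

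Cxcr5 was 3.98, 1.80 and 0 FPKM in Dnmt3-sufficient BMPC and had 0 reads in all 3 Dnmt3-deficient libraries. Its mean was 158-fold below Dnmt3-sufficient nB (log2 change -6.98, SE 0.47, adjusted p = 1.27e-08, limma) and at least 457-fold below Dnmt3-deficient nB (-8.28, SE 0.47, adjusted p = 1.31e-09, limma). The fold of Cxcr5 in Dnmt3-sufficient cells was 339 without BMPC replicate 1 and 105 without replicate 3. Ccr7 was found in a single BMPC library, with 6.46 FPKM (28 reads) in Dnmt3-sufficient replicate 1. The fall of Ccr7 was 66.5-fold (-6.19, SE 1.08, adjusted p = 0.000379, limma) in Dnmt3-sufficient cells (at least 350-fold without that library and 44.3-fold without either of the others) and at least 193-fold (-7.46, SE 1.08, adjusted p = 7.28e-05, limma) in Dnmt3-deficient cells.

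Ccr6 had 0 reads in 5 of the 6 BMPC libraries and 88 reads, 31.2 FPKM, in Dnmt3-deficient replicate 2. It was at least 409-fold lower than in nB in Dnmt3-sufficient cells (log2 change -7.61, SE 0.84, adjusted p = 3.60e-06, limma) and 16.1-fold lower in Dnmt3-deficient cells (-5.71, SE 0.84, adjusted p = 8.99e-05, limma). The same library held 28.5 FPKM of Cxcr3. Its 6 B lineage markers summed to 1799 FPKM with 4 above 0 (1173 to 1848 over the 6 BMPC libraries), with Pax5 and Ms4a1 at 0, and it had the highest sums of neutrophil markers (675 FPKM, 5 of 8 above 0) and of macrophage and dendritic cell markers (171 FPKM, 3 of 7 above 0) of all 18 libraries. Dnmt3-deficient replicate 3 had sums nearly as high (561 and 158 FPKM), with Ccr6 at 0 and Cxcr3 at 0.274 FPKM. The NK cell markers of replicate 2 summed to 26.3 FPKM, the lowest of the 6 BMPC libraries, and its T cell markers to 192. The part of these cells in the Ccr6 and Cxcr3 values of replicate 2 was not tested. Without replicate 2 Ccr6 was at least 220-fold lower than in nB, and it was 10.7-fold lower without Dnmt3-deficient BMPC replicate 1 or 3. Without replicate 2 the Ccr6 change in Dnmt3-deficient cells was -7.38 (adjusted p = 2.78e-06, limma).

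Gpr183 kept reads in all 6 BMPC libraries. It was 10.8, 26.1 and 12.6 FPKM in Dnmt3-sufficient cells, 9.47-fold below nB (log2 change -3.26, SE 0.96, adjusted p = 0.0168, limma), and 1.46, 12.8 and 0.150 in Dnmt3-deficient cells, 31.8-fold below nB (-5.50, SE 0.96, adjusted p = 0.000416, limma). In Dnmt3-deficient cells it was 190-fold without BMPC replicate 2. The fall in Dnmt3-sufficient cells did not pass without BMPC replicate 1 (-3.03, adjusted p = 0.0934, limma) or replicate 3 (-3.13, adjusted p = 0.0772, limma).

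Ccr10, known from antibody-secreting cells that home to mucosa, was above 0 in every BMPC library. It was 6.60, 19.5 and 1.6 FPKM in Dnmt3-sufficient and 7.81, 6.84 and 0.256 in Dnmt3-deficient cells, the last resting on 1 read. With 0 reads in nB, the means were at least 40.7-fold and at least 21.5-fold higher (log2 changes 2.89, SE 0.78, adjusted p = 0.010, and 2.15, SE 0.78, adjusted p = 0.0471, limma). The Dnmt3-sufficient rise did not pass without BMPC replicate 2 (2.15, adjusted p = 0.103, limma). Without that library the bound was 18.1-fold. The Dnmt3-deficient rise did not pass when any of 12 libraries was left out in turn, with an adjusted p up to 0.231 (limma) without BMPC replicate 1.

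Cxcr4 did not pass between BMPC and nB. It was 15.8, 32.0 and 24.6 FPKM in Dnmt3-sufficient and 10.1, 26 and 37.7 in Dnmt3-deficient BMPC, with changes of 1.09 (SE 0.56, adjusted p = 0.158, limma) and 0.82 (SE 0.56, adjusted p = 0.288, limma). The 95% intervals of these changes, -0.08 to 2.26 and -0.35 to 1.99, hold a change of 1 in both. Cxcr3 was split between BMPC libraries, at 19.0, 0.164 and 0 FPKM in Dnmt3-sufficient and 0, 28.5 and 0.274 in Dnmt3-deficient cells. Ccr9 was 1.5, 0.108 and 0 FPKM and 7.56, 0.683 and 0.817.

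**Figure D3:**
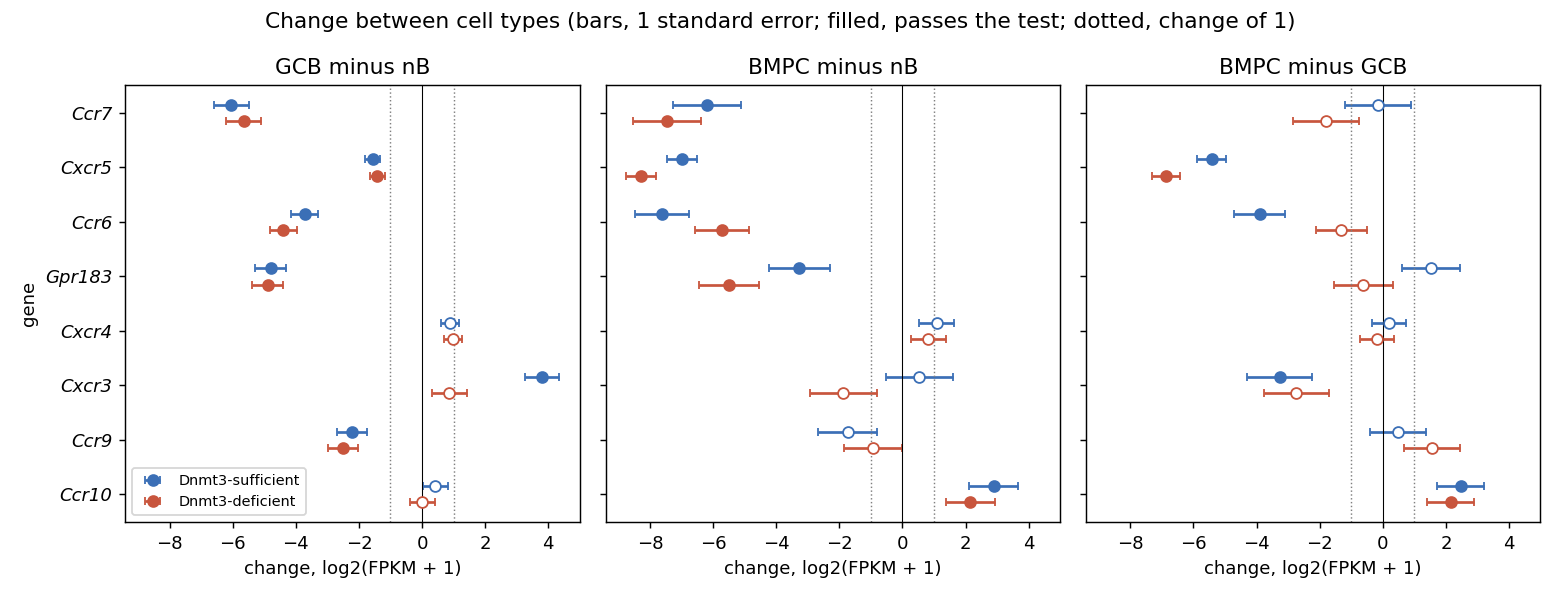
Change of each receptor gene between cell types (x axis, log2(FPKM + 1)) for each gene (y axis) in Dnmt3-sufficient (blue) and Dnmt3-deficient (red) cells, with 1 standard error as bars. Filled points passed, the dotted lines mark a change of 1, and Cxcr5 is the only gene that passed in all 6 comparisons.

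Between BMPC and GCB, which both came from immunized mice, 4 genes passed in Dnmt3-sufficient cells, beside 21.0% of all genes (5.22% higher and 15.8% lower), and 2 in Dnmt3-deficient cells, beside 24.9% (4.99% higher and 19.9% lower). There was no overlap for 5 of the 8 genes and for 4, beside 43.3% and 44.6% of all genes. Cxcr5 fell in both, 53.8-fold (log2 change -5.42, SE 0.45, adjusted p = 1.89e-07, limma) and at least 170-fold (-6.86, SE 0.45, adjusted p = 8.05e-09, limma). Ccr10 rose in both, by 2.47 (SE 0.75, adjusted p = 0.0231, limma) and 2.15 (SE 0.75, adjusted p = 0.0415, limma). In Dnmt3-sufficient cells Ccr6 also fell at least 31.0-fold (-3.89, SE 0.81, adjusted p = 0.00206, limma) and Cxcr3 fell 4.15-fold (-3.27, SE 1.02, adjusted p = 0.0281, limma).

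Several of these calls were lost with 1 library left out. The fall of Cxcr3 did not pass without BMPC replicate 2 (-2.62, adjusted p = 0.188, limma) or replicate 3 (-2.51, adjusted p = 0.199, limma). In Dnmt3-deficient cells Cxcr3 did not pass (-2.74, SE 1.02, adjusted p = 0.0571, limma) but did without BMPC replicate 2 (-4.31, adjusted p = 0.0102, limma), the library with 28.5 FPKM. The rise of Ccr10 in Dnmt3-sufficient cells did not pass without BMPC replicate 1 (adjusted p = 0.0978, limma) or replicate 2 (adjusted p = 0.213, limma), and in Dnmt3-deficient cells it did not pass without any one of 6 libraries. These were Dnmt3-deficient BMPC replicates 1 (adjusted p = 0.229, limma) and 2 (adjusted p = 0.210, limma), Dnmt3-sufficient BMPC replicate 1 and each Dnmt3-deficient GCB library (adjusted p = 0.0530 to 0.0582, limma). The folds of means in Dnmt3-sufficient cells moved as well. That of Cxcr5 was 115 without BMPC replicate 1 and 35.9 without replicate 3, that of Cxcr3 was at least 52.7 without replicate 1 and 2.77 without replicate 3, and that of Ccr10, 20.2 with all libraries, was 8.98 without BMPC replicate 2 and at least 43.7 without GCB replicate 3. Gpr183 was higher in all 3 Dnmt3-sufficient BMPC libraries than in any GCB library, with a change of 1.53 (SE 0.92) that did not pass (adjusted p = 0.262, limma).

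The comparison of genotypes asked whether loss of Dnmt3a and Dnmt3b changes the receptors within a cell type. None of the 8 genes passed in nB, GCB or BMPC (0 of 8 in each, limma), where 0.0868%, 0.0174% and 0.148% of all genes passed. In each of these cell types 1 of the 8 genes had an unadjusted p under 0.05, beside 623, 729 and 870 of the 11522 genes tested, and voom on recovered reads also passed 0 of 8. The lowest adjusted p (limma) was 0.136 for nB, 0.685 for GCB and 0.661 for BMPC.

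In nB the gene with that value was Cxcr3, with 2.42, 0 and 1.25 FPKM in Dnmt3-sufficient and 11.8, 19.7 and 5.94 in Dnmt3-deficient libraries. All 3 Dnmt3-deficient libraries were higher, and the means differed 10.2-fold (log2 change 2.63, SE 0.62, adjusted p = 0.136, limma). The sum of NK cell markers was also higher there, by a narrow gap. The 5 genes summed to 46.1, 49.9 and 94.8 FPKM in Dnmt3-sufficient and 95.9, 106 and 138 in Dnmt3-deficient nB. Single markers overlapped between genotypes. The NK receptor gene Ncr1 was at 0, 5.52 and 7.08 against 19.3, 5.92 and 19.4. Klrb1c was at 0 to 8.16 against 2.17 to 4.46, highest in a Dnmt3-sufficient library. From 2 to 5 of the 5 genes were above 0 in the Dnmt3-sufficient libraries and all 5 in the Dnmt3-deficient ones. T cell markers overlapped, at 36.1 to 125 FPKM against 39.2 to 102 in the Dnmt3-deficient libraries, and 6 to 9 of the 9 were above 0. The 4 erythroid markers summed to 0.468 to 1.42 FPKM in the first genotype and to 22.5 to 218 in the second. The 7 markers of macrophages and dendritic cells summed to 1.70 to 76.6 and 15.8 to 46.5. NK and T cells are known to express Cxcr3. The dump channel held CD11b, CD11c, CD90.2 and Ly6-G antibodies, and the part of RNA of NK or T cells in this difference was not tested. In GCB, where Ncr1 was at 0 in all 6 libraries, Cxcr3 was 26.5 ± 1.79 FPKM (n = 3) in Dnmt3-sufficient and 21.5 ± 3.38 in Dnmt3-deficient cells.

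**Figure D4:**
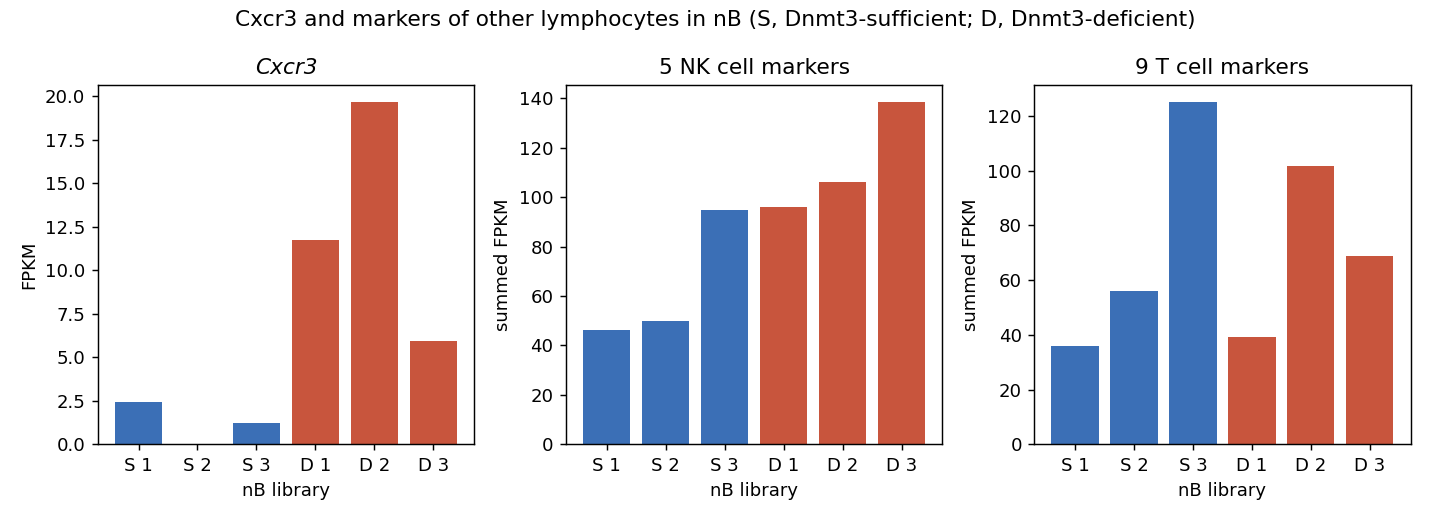
Cxcr3 (left, FPKM), the summed FPKM of 5 NK cell markers (middle) and of 9 T cell markers (right) in each nB library (x axis, 3 Dnmt3-sufficient in blue and 3 Dnmt3-deficient in red). Cxcr3 and the NK cell sum are higher in all Dnmt3-deficient libraries, while the T cell sums overlap.

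For the receptors that were high in nB the estimated genotype differences there were small. The log2 difference was 0.04 for Cxcr5 (95% interval -0.53 to 0.60), -0.04 for Gpr183 (-1.20 to 1.13), -0.23 for Ccr6 (-1.25 to 0.79) and 0.30 for Ccr7 (-1.01 to 1.61). The 3 Dnmt3-deficient libraries of Ccr7 lay just above the 3 Dnmt3-sufficient ones, 164 to 189 against 120 to 161 FPKM. In nB 2 of the 8 genes had no overlap, beside 8.84% of all genes.

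In GCB Ccr6 was lower in each Dnmt3-deficient library (5.31 to 8.39 FPKM) than in any Dnmt3-sufficient one (9.69 to 22.8), 2.11-fold between means, with a log2 change of -0.91 (SE 0.37) that did not pass (adjusted p = 0.685, limma). Cxcr4 was likewise apart, at 22.6 to 27.0 against 19.4 to 20.8 FPKM, with a change of 0.27 (95% interval -0.24 to 0.77). No overlap was seen for these 2 genes of the 8, beside 10.6% of all genes.

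In BMPC several marker sums also differed by genotype, those of erythroid, NK, macrophage and dendritic, plasma cell and B lineage markers (values above). Their part was not tested. The intervals in BMPC were wide, and 0 of the 8 genes had libraries without overlap, beside 10.3% of all genes. The change of Cxcr5 was -1.27 (SE 0.60, adjusted p = 0.661, limma), from 41 reads over the 3 Dnmt3-sufficient libraries to 0. These read counts come from unequal depths, 2196198 to 3803197 reads per Dnmt3-sufficient and 1355231 to 2265945 per Dnmt3-deficient library. Gpr183 was 3.44-fold lower in Dnmt3-deficient cells (-2.27, SE 1.24, adjusted p = 0.767, limma), with replicates that overlapped. Cxcr4, the bone marrow receptor, was 24.2 ± 8.12 FPKM in Dnmt3-sufficient and 24.6 ± 13.8 in Dnmt3-deficient BMPC, a change of -0.10 whose 95% interval ran from -1.61 to 1.41. A 2-fold change in either direction lies within that interval.

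The genotype effect was compared between cell types as an interaction, and 0 of the 8 genes passed for GCB against nB, BMPC against nB or BMPC against GCB (limma, beside 0.026%, 0.104% and 0.0694% of all genes). At an unadjusted p under 0.05 there were 1, 0 and 2 of the 8, beside 638, 804 and 784 of all genes. The gene in GCB against nB was Cxcr3, as above. The others were Cxcr5 and Ccr6 in BMPC against GCB, at -1.44 (SE 0.64, adjusted p = 0.714, limma) and 2.58 (SE 1.15, adjusted p = 0.716, limma).

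The remaining chemokine receptors were mostly low. Of 18 listed, 9 passed the filter. Ackr4, a scavenging receptor of Ccl19, Ccl21 and Ccl25 that does not signal through G proteins, was nearly restricted to GCB in these libraries, at 23.2 ± 3.91 FPKM in Dnmt3-sufficient and 20.6 ± 8.0 in Dnmt3-deficient GCB, with no more than 0.0431 in any nB library and 0 in BMPC (GCB minus nB 4.56, adjusted p = 2.76e-09, and 4.36, adjusted p = 5.74e-09, limma). Ackr2, another scavenging receptor, also rose in GCB in both genotypes (1.89, adjusted p = 0.00803, and 1.52, adjusted p = 0.0316, limma). Ccr1 and Ccr2, receptors of inflammatory chemokines, fell in GCB in both, and Cxcr6 fell in Dnmt3-sufficient cells.

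Cxcr6, the receptor of Cxcl16, was highest in BMPC, at 76.2, 24.9 and 14.1 FPKM in Dnmt3-sufficient and 129, 128 and 141 in Dnmt3-deficient cells. It rose over GCB in both genotypes (4.52, adjusted p = 0.00762, and 6.58, adjusted p = 0.000350, limma). The Dnmt3-deficient libraries were higher without overlap, but the genotype change of 2.1 (SE 1.52) did not pass (adjusted p = 0.885, limma). Cxcr2 is best known from neutrophils. The nB libraries had 25.6 to 28.9 FPKM of Cxcr2, the GCB libraries 33.7 to 42.4 and the BMPC libraries 33.5 to 81.5. Cxcr2 rose in Dnmt3-sufficient BMPC over nB (1.38, adjusted p = 0.00762, limma). The 8 neutrophil markers were at 0 in every nB and GCB library. They summed to 63.4 to 543 FPKM in Dnmt3-sufficient and 9.37 to 675 in Dnmt3-deficient BMPC. The part of neutrophil RNA in the Cxcr2 values was not tested. Ccrl2 and Ackr3 passed the filter and passed the test in no comparison. In GCB against nB 2 of the 9 tested rose and 3 fell in each genotype, beside 12.1% and 16.6% of all genes in Dnmt3-sufficient cells and 10.7% and 14.7% in Dnmt3-deficient cells.

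Of 20 listed ligands and oxysterol enzymes, 18 were found and 10 passed the filter. Cxcl12, the ligand of Cxcr4, which marrow stroma is known to make, rose in BMPC over nB in both genotypes (2.54, adjusted p = 0.00365, and 2.91, adjusted p = 0.00144, limma), at 2.35, 22.0 and 1.58 FPKM and 7.53, 8.96 and 4.93, against at most 0.0995 in nB. Ccl3 rose in Dnmt3-sufficient BMPC (3.08, adjusted p = 0.00153, limma) and was at 0 in the Dnmt3-deficient libraries. Ccl5, which T and NK cells make in large amounts, had 47.7 ± 15.2 FPKM in Dnmt3-sufficient nB and 86.7 ± 13.4 in the other genotype, and fell in GCB in both genotypes (-4.03, adjusted p = 1.05e-05, and -6.07, adjusted p = 7.39e-08, limma). Cxcl10, a ligand of Cxcr3, rose in Dnmt3-deficient GCB over nB (2.01, adjusted p = 0.00220, limma). Ccl19, Ccl25, Ccl27a, Ccl4, Ccl22 and Hsd3b7 passed in no cell type comparison. None of the 10 passed between genotypes in any cell type.

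Of 50 genes of receptor signalling and migration, 47 passed the filter. From nB to GCB 4 rose and 15 fell in Dnmt3-sufficient cells and 5 rose and 10 fell in Dnmt3-deficient cells, beside shares over all genes of 12.1% higher and 16.6% lower, and 10.7% higher and 14.7% lower. From nB to BMPC 2 rose and 23 fell, and 2 rose and 24 fell, beside 7.94% higher and 19.2% lower, and 5.21% higher and 21.6% lower. The median change was -0.52 and -0.42 in GCB and -2.04 and -1.66 in BMPC, beside -0.11, -0.13, -0.70 and -0.84 over all genes, and 0 of 47 passed between genotypes in any cell type. Rgs1 and Rgs13, which shorten G protein signals downstream of chemokine receptors, rose most in Dnmt3-sufficient GCB, from 0.0298 ± 0.0516 to 104 ± 39.7 FPKM (6.59, adjusted p = 1.36e-08, limma) and from 4.14 ± 4.13 to 291 ± 37.8 (6.32, adjusted p = 1.97e-08, limma). Rgs10 rose in GCB (4.08, adjusted p = 4.45e-06, limma) and in BMPC (5.13, adjusted p = 0.000956, limma), where the small GTPase Rap1a rose as well (1.6, adjusted p = 0.0376, limma).

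The largest falls in Dnmt3-sufficient GCB were those of Rgs18 (-5.04, adjusted p = 7.94e-07, limma), the phospholipase Plcb2 (-2.91, adjusted p = 1.31e-05, limma) and the exchange factor Dock10 (-2.37, adjusted p = 8.72e-05, limma). In BMPC they were those of the actin regulator Wipf1 (-4.65, adjusted p = 6.33e-05, limma), of Arhgef1, an exchange factor for RhoA that acts downstream of G12 and G13 proteins (-4.44, adjusted p = 0.000111, limma), and of the receptor kinase Grk6 (-4.22, adjusted p = 4.13e-05, limma).

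For each receptor the 2 genes with the most similar pattern were found by Pearson's r of log2(FPKM + 1) over the 18 libraries, as a description. Libraries of the same cell type are not independent points, and BMPC libraries have the lowest depth. For Ccr7 they were Heg1 (0.98) and Relt (0.97), for Cxcr5 H2-Eb2 (0.99) and Snap29 (0.98), for Ccr6 Elmsan1 (0.96) and Strn4 (0.95), and for Gpr183 Nufip2 and Chd2 (0.93 each). Those of the other receptors were Aimp1 (0.86) and Tmem242 (0.85) for Cxcr4, Doc2a and Cby1 (0.88 each) for Cxcr3, Socs5 and Ppm1l (0.89 each) for Ccr9, and Hpn and 2410015M20Rik (0.93 each) for Ccr10. The mean FPKM of H2-Eb2 was 27.6 over nB libraries, 19.7 over GCB and 0.292 over BMPC, an order shared with Cxcr5, and Hpn was at 0 in nB and GCB and 18.8 in BMPC.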

How the data were processed

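RNA of 5000 sorted cells per library was amplified as cDNA and sequenced as 50-base read pairs. The authors mapped them to mm9 with TopHat 2.1.1 and counted reads over the exons of UCSC KnownGenes with summarizeOverlaps (strand use not given in the sources used here). Per the labels' processing notes, R 3.2.2, edgeR 3.12.1 and Picard were also used. The deposited values are FPKM computed by the authors. The authors' fold changes and FDR were not used.

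FPKM times exon length gave whole reads for 100% of values in every library (tolerance 0.05 read), and amplified reads are not independent molecules, so read floors cover counting error only. Each group was fitted over all 18 libraries with limma 3.58.1 (R 4.3.3) on log2(FPKM + 1), with 1 variance weight per cell type (nB 1.41, GCB 2.51, BMPC 0.283), an intensity trend, two-sided tests and Benjamini-Hochberg adjustment over 11522 genes. This scale understates changes of low genes. The script was tested on simulated data. Values after ± are SD. Tables were made with Python 3.11.15. Columns of per-sample values without a matching sample numbered 0.

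The members and lists were chosen with earlier results of these data known. Named genes were the 8 members, filtered genes of the receptor and ligand lists, up to 3 signalling genes with the largest rise and fall without overlap in GCB and BMPC against nB in Dnmt3-sufficient cells, and 2 similar genes per member. nB and BMPC libraries came from separate mice and GCB libraries from pools. Replicates are numbered by order of deposit within a group. GCB titles share labels between genotypes, but same-labelled libraries did not deviate together (correlations -0.02 to 0.03). Marker lists covered the sorted cells and other cells that the sorts could hold. Alternatives were other weights, the groups compared alone, other filters and pseudocounts, median of ratios scaling, voom, sex, stricter or looser thresholds and each library left out. Results for some genes are not reported here.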

Additional observations from a re-analysis of the deposited data

How the results depend on the processing

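Of 27 member changes that passed, 20 passed under every alternative tried and 7 lost the call under at least 1, which were the 4 of Ccr10 in BMPC, that of Cxcr3 between BMPC and GCB and that of Gpr183 between BMPC and nB in Dnmt3-sufficient cells, and that of Ccr9 between GCB and nB in Dnmt3-sufficient cells (adjusted p = 0.0672 when only the groups compared were fitted, limma). None of the 27 reversed. The number of members that passed between BMPC and nB in Dnmt3-sufficient cells went from 5 to 3 at an adjusted p of 0.01. Between BMPC and GCB it went from 4 to 2 in Dnmt3-sufficient cells with only the groups compared, a pseudocount of 0.1 or an adjusted p of 0.01, and ran from 2 to 4 with a library left out. In Dnmt3-deficient cells it went from 2 to 1 under the same 3 settings, with FPKM above 3 in at least 3 libraries and with sex as a covariate, and ran from 1 to 3 with a library left out. Cxcr4 between GCB and nB in Dnmt3-deficient cells passed with voom on the recovered reads and with a pseudocount of 0.1 (1.05 in both), and also without Dnmt3-deficient nB replicate 1 or 3 or GCB replicate 1 or 2 (1.00 to 1.09), which took the members that passed there from 5 to 6. The genotype difference of Cxcr3 in nB ran from 2.14 to 4.45, with adjusted p from 0.0854 to 1.0 (limma). The number of all genes that passed ran from 0 to 29 for genotype in nB (10 as reported), from 0 to 14 in GCB (2) and from 0 to 459 in BMPC (17), where 459 came with 1 common spread for all libraries. Between cell types it ran from 1631 to 3337 (3304) and 1489 to 3163 (2925) for GCB against nB, from 2061 to 4299 (3123) and 2041 to 4311 (3086) for BMPC against nB and from 1548 to 3175 (2424) and 1981 to 3719 (2871) for BMPC against GCB, in Dnmt3-sufficient and Dnmt3-deficient cells. The cause of these changes was not tested. Median of ratios scaling moved the median of all genes in Dnmt3-deficient cells from -0.84 to -0.70 for BMPC against nB and from -0.73 to -0.57 for BMPC against GCB. With the shared GCB labels as a replicate block, 0 of 8 members passed between genotypes in GCB, as without it, and the change of Ccr6 was -0.91 (adjusted p = 0.741, limma). BMPC libraries are the shallowest, and Ccr10, Cxcr3 and Ccr9 rest on few reads in several of them.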
